A study of Mus musculus with 16 samples.

Results

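The nuclear genome encodes most subunits of the 5 complexes with which mitochondria make ATP, and the mRNAs of these subunits are described here in mouse brown adipocytes in which lipolysis was activated with or without a block of fatty acid use. The members were the genes of the deposited count table whose symbols begin with Nduf followed by a, b, c, s or v and a digit, with Uqcr, with Cox and a digit from 4 to 8, or with Atp5, together with Sdha, Sdhb, Sdhc and Sdhd. This rule on symbols uses no measured value and found 84 of the 20295 genes. By symbol, 37 belong to complex I, 4 to complex II, 8 to complex III, 18 to complex IV and 17 to complex V.

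Complex I passes electrons from NADH, and complex II those from succinate, to ubiquinone, complex III hands them on to cytochrome c, and complex IV transfers them to oxygen. Complexes I, III and IV pump protons across the inner mitochondrial membrane, and complex V, the ATP synthase, uses the gradient to make ATP. Brown adipocytes are rich in mitochondria and can let the protons flow back through the uncoupling protein UCP1, which releases heat, and fatty acids set free by lipolysis are both the fuel of this chain and activators of UCP1.

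The cells were a mouse brown preadipocyte line immortalized with the large T antigen of SV40, of wild-type genotype, harvested at day 7 of differentiation in culture. In each of the 6 groups they were pretreated for 1 h with vehicle, with 5 µM triacsin C (TC, spelled Triascin C in the labels), an inhibitor of the synthetases that join long-chain fatty acids to CoA, or with 50 µM etomoxir (ETO), an inhibitor of CPT1, through which the activated fatty acids enter mitochondria. Then they were kept for 3 h with or without SR-3420, a ligand of ABHD5 that activates lipolysis without an adrenergic agonist. The labels give 10 µM SR-3420 and the study's figure legends a higher concentration. The groups are called vehicle (2 samples), SR-3420 (2 samples), TC, TC+SR-3420, ETO and ETO+SR-3420 (3 samples each). A group's values are given in the order of replicate number, which is 2 and 3 for vehicle and 1 and 3 for SR-3420. The labels do not say what the replicate numbers mark, so the p-values measure only the spread between these samples of a single cell line. The total count per sample lay between 9452861 and 25670624. In such bulk RNA, fewer adipocytes and less of an mRNA per adipocyte cannot be told apart.

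Markers of adipocytes were abundant in the 16 samples. The 12 genes of the brown adipocyte list summed to a normalized count of 233059 and 202306 in vehicle, with Fabp4, the fatty acid binding protein of adipocytes, as the most abundant gene. Next came Adipoq, Pnpla2, Plin1 and Lipe, which white adipocytes express as well. Normalized counts are deposited counts divided by DESeq2's size factors. Of the genes typical of brown fat, Ucp1, which defines it, stood at 27.2 and 6.43 in vehicle, Cidea at 328 and 153, Elovl3 at 146 and 109, Dio2 at 0 and 0, Ppargc1a at 702 and 729 and Prdm16 at 553 and 411.

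Of the 84 members, 80 passed the filter on low counts and were tested, among 12786 genes in all. The 4 members that did not pass were Cox6b2, Cox7b2 and Cox8c, isoforms of complex IV subunits, and Ndufa4l2, a relative of Ndufa4. Cox7b2 had 0 counts in the 16 samples. The others had normalized counts of 5.38, 3.52 and 1.28 (Cox6b2), 0, 0 and 0 (Cox8c) and 7.18, 4.70 and 7.68 (Ndufa4l2) in TC+SR-3420. Some members carry a symbol that is not their place. Ndufa4 is now known as a subunit of complex IV, Cox7a2l as a factor that joins complexes into supercomplexes, and Atp5s and Atp5sl are not subunits of the ATP synthase. They were kept where their symbols put them.

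The members were short and abundant genes. Of reads that shared a position and a length the authors kept 1, so that a short and highly expressed transcript can run out of positions. The counted length, the number of bases over which reads of a gene were counted, had a median of 661 bases in the 80 members tested and of 2786 bases in all genes tested. It was under 750 bases in 57.5% of these members and in 3.75% of all genes tested. Over 2 counts per counted base, as a mean of the samples, were found in 43 of the 80 members and in 489 of the 12786 genes. By complex the median counted length was 651 bases for complex I, 1232 for complex II, 524.5 for complex III, 557 for complex IV and 772 for complex V. The longest members were Sdha (2859 bases) and Ndufa11 (2661 bases), an accessory subunit of complex I. The shortest were Atp5k (292 bases), subunit e of the ATP synthase, and Ndufs5, for which 25 bases were counted and which had a mean normalized count of 5.67.

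Levels between genes are compared here per length, as CPM per kilobase of counted length in vehicle. Atp5b, the catalytic beta subunit of the ATP synthase, was the highest at 2922, followed by Cox4i1 at 2338 and Cox6a1 at 2282, the common isoforms of complex IV subunits 4 and 6a. Cox8a stood at 1487 and Uqcrq, a small subunit of complex III, at 1312. These levels would be lower limits if reads ran out of positions, which was not tested. The highest sample held 55.0 counts per counted base of Atp5b, 63.9 of Cox4i1 and 63.2 of Cox6a1. The median level of a complex's members was 156 for complex I, 212 for complex II, 345 for complex III, 206 for complex IV and 169 for complex V. Levels of several members are also uncertain because their sequence occurs elsewhere in the genome. Of the windows of 50 bases along the transcript, 100% were found at another place for Atp5g2, 89.4% for Atp5l and 73.8% for Atp5g1. The share was 67.9% for Atp5h, 62.7% for Cox5b and 61.5% for Uqcrb.

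The share of all counts that was on the members was lowest in the samples given SR-3420 after an inhibitor. It was 2.77 and 2.27% in the vehicle samples and 2.17 and 1.94% in the SR-3420 samples. In TC it was 2.73, 3.27 and 2.97%, and in TC+SR-3420 1.56, 1.60 and 1.41%. In ETO it was 2.60, 2.48 and 2.08%, and in ETO+SR-3420 1.72, 1.47 and 1.55%. Every sample with SR-3420 after an inhibitor was lower than each of the 10 other samples, and the TC and vehicle samples overlapped.

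**Figure D1:**
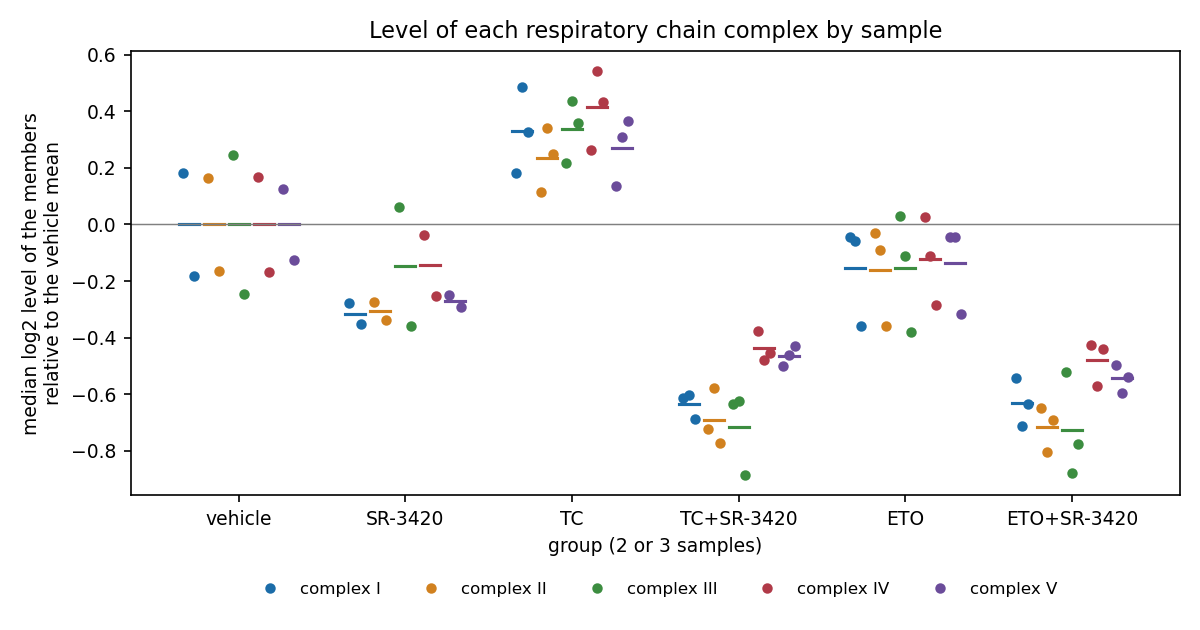
Median log2 CPM per kilobase of counted length of the members of each complex in each of the 16 samples, relative to the mean of the vehicle samples. Points have 1 colour per complex, bars are group means, and the group is on the horizontal axis. The bar of TC lies highest and those of TC+SR-3420 and ETO+SR-3420 lowest for each of the 5 complexes, with group means over the members of 0.33, -0.57 and -0.59.

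By group mean, the medians of the 5 complexes were highest in TC and lowest in the groups given SR-3420 after an inhibitor, while single members did not all follow. With fold changes corrected for their trend over counted length, the members' median in TC against vehicle was -0.03. Relative to vehicle, the median log2 level over the 80 members was -0.22 and -0.31 in the SR-3420 samples and 0.19, 0.44 and 0.36 in the TC samples. It was -0.54, -0.53 and -0.64 in TC+SR-3420, -0.04, -0.07 and -0.32 in ETO and -0.50, -0.69 and -0.57 in ETO+SR-3420. The plot of complexes by sample shows this for complex I, with 0.18, 0.49 and 0.33 in TC and -0.61, -0.60 and -0.69 in TC+SR-3420, and for complex V, with 0.14, 0.31 and 0.37 and -0.50, -0.46 and -0.43. In SR-3420 the samples lay further apart for complex III than for the other complexes, at 0.06 and -0.36. Of the members of complex IV, 6 lay above 0 and 9 below in SR-3420 against vehicle.

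TC+SR-3420 against TC asks how these mRNAs respond to lipolysis when fatty acids cannot be activated. Most members fell, in each of the 5 complexes, with the muscle and brown fat isoform Cox8b the furthest, and a single member, Cox4i2, rose. Of the 80 members tested, 58 fell and 1 rose at an adjusted p under 0.05, where 19.7% of all genes tested were lowered and 17.3% raised. The adjusted p throughout comes from the quasi-likelihood test of edgeR and is adjusted by Benjamini-Hochberg across the genes tested. The median log2 fold change was -0.90 for the members and 0.02 for all genes, and 79 of the members lay below 0. Lowered were 24 of 36 members of complex I, 4 of 4 of complex II, 7 of 8 of complex III, 11 of 15 of complex IV and 12 of 17 of complex V, with medians of -0.93, -0.93, -0.99, -0.88 and -0.83. With an offset that removes the trend of fold changes over counted length, 36 of the members were lowered and the median was -0.44.

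**Figure D2:**
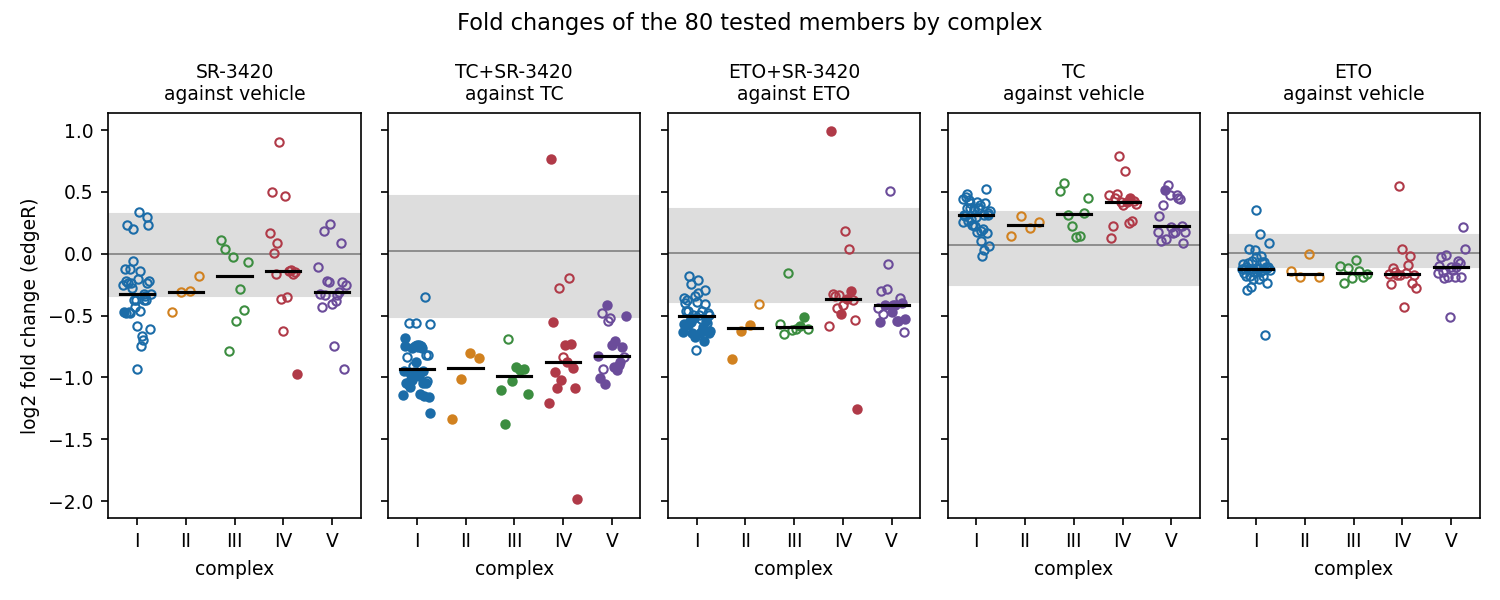
Log2 fold change by edgeR (vertical axis) of the 80 tested members in 5 comparisons, by complex (horizontal axis). Filled points have an adjusted p under 0.05, black bars are the median of a complex, and the grey line and band are the median and the quartiles of all genes tested, so that the points of TC+SR-3420 against TC are seen around the members' median of -0.90, under the band.

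In complex I the largest falls were in Ndufv3 and Ndufv1, a small accessory subunit and the NADH-binding flavoprotein of the arm that takes up electrons, and in Ndufs3, a core subunit of the same arm. Ndufv3 had normalized counts of 3359, 3663 and 3884 in TC and of 1494, 1598 and 1449 in TC+SR-3420. The TC+SR-3420 samples were all lower than the TC samples, and the ranges lay far apart. Its log2 fold change was -1.29 ± 0.12 (SE, n = 3 and 3; adjusted p = 9.46e-06 by edgeR). Ndufv1 stood at 8337, 11163 and 8175 in TC and at 4649, 4529 and 3451 in TC+SR-3420. Here too the groups did not overlap, and the log2 fold change was -1.16 ± 0.22 (adjusted p = 0.00132 by edgeR). Ndufs3 went from 1335, 1638 and 1448 to 672, 733 and 622, a log2 fold change of -1.15 ± 0.15 (adjusted p = 8.13e-05 by edgeR), with 43.0% of its windows found at other places of the genome. These 3 calls held whichever of the 16 samples was left out. The other members of complex I that were tested had log2 fold changes between -1.14 (Ndufa1, an accessory subunit encoded on the X chromosome) and -0.35 (Ndufs4, an accessory subunit of the peripheral arm, adjusted p = 0.0737 by edgeR).

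Each of the 4 subunits of complex II, which is also an enzyme of the tricarboxylic acid cycle, fell. Sdha, the flavoprotein that oxidizes succinate, had normalized counts of 17343, 19654 and 18451 in TC and of 7345, 7883 and 7097 in TC+SR-3420. The TC+SR-3420 samples were the lower in each case, at a fold of 0.397 (log2 fold change -1.33 ± 0.13, adjusted p = 9.80e-06 by edgeR). Sdha is the longest member, and its log2 fold change with the offset for counted length was -1.25. Sdhb, the iron-sulfur subunit, had 3264, 4354 and 3699 in TC and 1915, 2073 and 1719 in TC+SR-3420, without overlap (log2 fold change -1.01 ± 0.17, adjusted p = 4.42e-04 by edgeR). The membrane anchors Sdhc and Sdhd gave log2 fold changes of -0.80 ± 0.11 (adjusted p = 1.48e-04 by edgeR) and -0.84 ± 0.15 (adjusted p = 8.85e-04 by edgeR).

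In complex III the largest log2 fold changes were in 3 small accessory subunits, Uqcr11, Uqcrq and Uqcr10, which differed much between samples of a group. Uqcr11 had normalized counts of 3719.7, 7329 and 4411 in TC and of 2301, 2177 and 1577 in TC+SR-3420. The second TC sample was the highest of all, and the groups did not overlap (log2 fold change -1.38 ± 0.42, adjusted p = 0.0211 by edgeR). Without TC 2, TC+SR-3420 2 or TC+SR-3420 3 its adjusted p was over 0.05, up to 0.104 by edgeR, and with the offset for counted length it was 0.0855. Uqcrq stood at 10402, 15194 and 11070.2 in TC and at 6725, 6100.0 and 4134 in TC+SR-3420. The groups did not overlap (log2 fold change -1.14 ± 0.32, adjusted p = 0.0133 by edgeR), and the call was lost without TC 2 or TC+SR-3420 3 (up to 0.0602 by edgeR) and with the offset for counted length (0.0785). Uqcr10 gave -1.10 ± 0.34 (adjusted p = 0.0218 by edgeR), with the call lost without TC 2, TC+SR-3420 2 or TC+SR-3420 3 (up to 0.0902 by edgeR) and with the offset for counted length (0.132). The values were steadier for Uqcrfs1, the Rieske iron-sulfur protein, at 5864, 6957 and 7002 in TC and 3484, 3405 and 3585 in TC+SR-3420. These did not overlap (log2 fold change -0.94 ± 0.12, adjusted p = 8.00e-05 by edgeR). Uqcrb, a subunit near the ubiquinone site, was the member of complex III that did not pass the test (log2 fold change -0.69 ± 0.47, adjusted p = 0.270 by edgeR).

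Complex IV held the member with the largest fold change. Cox8b encodes the form of subunit 8 that is made in heart, skeletal muscle and brown fat, and it lies on mm9 at chr7:148084841-148086345, minus strand. Its normalized counts were 1726, 2423 and 2275 in TC and 478, 616 and 550.4 in TC+SR-3420. The TC+SR-3420 samples were all far below the TC samples, at a fold of 0.252 (log2 fold change -1.99 ± 0.18, adjusted p = 7.01e-06 by edgeR). Cox8a, the form made in most tissues, stood at 12227, 18039.8 and 14465 in TC and at 7839, 7394 and 6149 in TC+SR-3420. It did not overlap either (log2 fold change -1.09 ± 0.24, adjusted p = 0.00324 by edgeR). The promoters of both genes are printed because they belong to 2 isoforms of the same subunit that stand apart in size of change. They run from 250 bases before to 50 bases after the annotated start, from RefSeq (GRCm38.p6 chr7:140900397-140900696, minus strand, and GRCm38.p6 chr19:7217567-7217866, minus strand), with capitals for a TATAAA match in Cox8b and for 2 matches of CTTCCGG, the ETS letters CCGGAAG on the other strand, in Cox8a.
Cox8b: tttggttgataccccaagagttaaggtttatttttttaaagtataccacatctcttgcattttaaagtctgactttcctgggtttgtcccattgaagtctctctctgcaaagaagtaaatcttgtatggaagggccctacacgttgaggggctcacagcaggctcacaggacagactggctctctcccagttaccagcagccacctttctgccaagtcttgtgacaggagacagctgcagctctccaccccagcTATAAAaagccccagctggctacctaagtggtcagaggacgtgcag
Cox8a: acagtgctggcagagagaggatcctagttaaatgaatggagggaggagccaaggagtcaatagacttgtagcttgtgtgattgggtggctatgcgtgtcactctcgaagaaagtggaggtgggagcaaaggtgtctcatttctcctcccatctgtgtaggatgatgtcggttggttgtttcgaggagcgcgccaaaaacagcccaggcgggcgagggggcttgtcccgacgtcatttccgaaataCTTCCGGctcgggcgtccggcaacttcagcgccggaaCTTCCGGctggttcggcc

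Cox4i2 was the member of complex IV, and of the 80 members, that rose. It encodes the form of subunit 4 known from lung and from cells short of oxygen. Its normalized counts were low, at 39.6, 38.2 and 54.1 in TC and 64.6, 97.4 and 66.6 in TC+SR-3420. The TC+SR-3420 samples were the higher and did not overlap with TC (log2 fold change 0.77 ± 0.27, adjusted p = 0.0402 by edgeR). The gene overlaps 1 other gene of the table, and its adjusted p was over 0.05 without TC 1, TC 2, TC+SR-3420 2, TC+SR-3420 3 or ETO 2 (up to 0.137 by edgeR). Its partner Cox4i1 stood at 27193, 44288 and 27420.3 in TC and at 17936, 15527 and 10064 in TC+SR-3420. It fell (log2 fold change -1.21 ± 0.39, adjusted p = 0.0280 by edgeR), and the call was lost without TC 2, TC+SR-3420 2 or TC+SR-3420 3 (up to 0.121 by edgeR, with log2 fold changes between -1.382 and -0.9375 over the 16 fits) and with the offset for counted length (0.108, log2 fold change -0.74). Cox6a1, another abundant member, gave a log2 fold change of -1.09 ± 0.38 (adjusted p = 0.0384 by edgeR), whose call was lost without TC 2, TC+SR-3420 1, TC+SR-3420 2, TC+SR-3420 3 or ETO 2 (up to 0.161 by edgeR) and with that offset (0.181). The values of Cox6b1, a subunit on the outer face of the complex, were 3107, 3795 and 3776 in TC and 1755, 1904 and 1682 in TC+SR-3420. They did not overlap (log2 fold change -1.02 ± 0.12, adjusted p = 3.05e-05 by edgeR), and Cox7a2 and Cox7b gave -0.88 ± 0.10 (adjusted p = 3.58e-05 by edgeR) and -0.73 ± 0.11 (adjusted p = 1.56e-04 by edgeR).

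**Figure D3:**
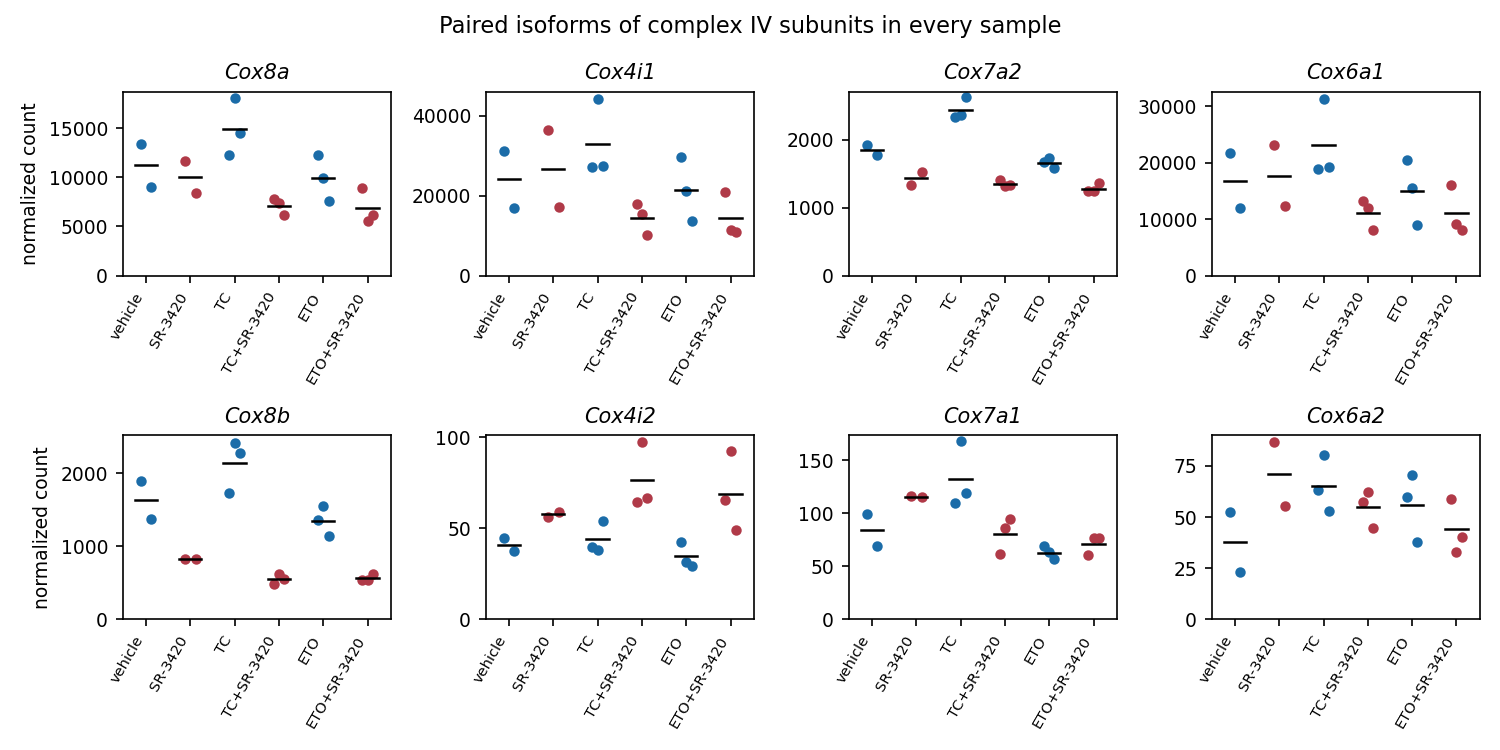
Normalized count (vertical axis, from 0) of 4 common isoforms of complex IV subunits (upper row) and of their tissue-restricted partners (lower row) in each of the 16 samples, by group, with the group mean as a bar and samples with SR-3420 in red. Cox8b is lowest in the 8 samples with SR-3420, and Cox4i2, at 97.4 or less, lies higher in TC+SR-3420 than in TC and in ETO+SR-3420 than in ETO.

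The ATP synthase followed the other complexes. Atp5b, with the most counts of the members, stood at 88357, 96244 and 93733 in TC and at 47736, 49188 and 43854 in TC+SR-3420. The groups did not overlap, and the samples within a group lay close together (log2 fold change -1.01 ± 0.12, adjusted p = 5.35e-05 by edgeR). Atp5e, the small epsilon subunit of the catalytic head, had 3558, 4268 and 3899.8 in TC and 1965, 1962 and 1815 in TC+SR-3420. Without overlap, it gave a log2 fold change of -1.05 ± 0.13 (adjusted p = 5.44e-05 by edgeR). Atp5j2, a subunit of the membrane part, had 3323, 4463 and 3689.7 in TC and 2040.5, 2141 and 1893 in TC+SR-3420. It was lower in each TC+SR-3420 sample (log2 fold change -0.94 ± 0.14, adjusted p = 2.26e-04 by edgeR). These 3 calls held whichever of the 16 samples was left out. Of the 3 genes for the same subunit c of the rotor, Atp5g3 fell (log2 fold change -0.73 ± 0.12, adjusted p = 3.54e-04 by edgeR), with the call lost with the offset for counted length (0.162), while Atp5g1 and Atp5g2 gave -0.54 ± 0.25 (adjusted p = 0.109 by edgeR) and -0.52 ± 0.28 (adjusted p = 0.162 by edgeR).

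ETO+SR-3420 against ETO asks the same with fatty acid entry into mitochondria blocked, and it shares no sample with TC+SR-3420 against TC. Members fell here too, with Cox8b again the lowest and Cox4i2 again the highest log2 fold change. Of the 80 members, 30 fell and 1 rose, where 12.8% of all genes tested were lowered and 12.5% raised. The median log2 fold change was -0.49 for the members and 0.01 for all genes. Lowered were 13 members of complex I, 3 of complex II, 2 of complex III, 4 of complex IV and 8 of complex V, with medians of -0.51, -0.60, -0.59, -0.37 and -0.42. Without ETO 1, ETO 2 or ETO+SR-3420 2 the number lowered was 19, 19 and 18, and it was 5 when the ETO and ETO+SR-3420 samples were fitted alone. DESeq2 called 33 lowered and 1 raised, and 1944 and 1856 of all genes tested. With the replicate number as a block, an alternative fit, the number of members lowered was 58, and that of all genes is not given here.

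Cox8b had normalized counts of 1367, 1549.9 and 1144 in ETO and of 537, 543 and 617 in ETO+SR-3420. The groups did not overlap (log2 fold change -1.25 ± 0.17, adjusted p = 2.45e-04 by edgeR). Cox4i2 stood at 42.6, 31.6 and 29.4 in ETO and at 65.2, 92.6 and 49.1 in ETO+SR-3420. The lowest ETO+SR-3420 sample was above the highest ETO sample (log2 fold change 0.99 ± 0.27, adjusted p = 0.0171 by edgeR), with no call without ETO 2, ETO 3 or ETO+SR-3420 2 (up to 0.0884 by edgeR). Sdha went from 16383, 15869.9 and 14063 to 8999, 7327 and 9247, the largest fall outside complex IV. Its log2 fold change was -0.85 ± 0.13 (adjusted p = 3.66e-04 by edgeR), and those of Sdhb and Sdhc were -0.62 ± 0.17 (adjusted p = 0.0149 by edgeR) and -0.58 ± 0.11 (adjusted p = 0.00270 by edgeR). The call of Sdhb was lost without ETO 1, ETO 2 or ETO+SR-3420 2 (up to 0.0639 by edgeR). In complex I, Ndufs3 stood at 1235, 1161 and 899.7 in ETO and 718, 625 and 673 in ETO+SR-3420, and Ndufb3, an accessory subunit of the membrane arm, at 625, 655 and 669.5 and 394, 327 and 495. Neither gene's groups overlapped, with log2 fold changes of -0.71 ± 0.15 (adjusted p = 0.00384 by edgeR) and -0.67 ± 0.15 (adjusted p = 0.00555 by edgeR). Ndufa9, an accessory subunit of complex I, gave -0.64 ± 0.19 (adjusted p = 0.0276 by edgeR), with the call lost without ETO 1, ETO 2, ETO+SR-3420 2 or ETO+SR-3420 3 (up to 0.119 by edgeR).

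In complex III, Uqcrfs1 had normalized counts of 5389, 5586 and 5604 in ETO and of 3797, 3132 and 4091 in ETO+SR-3420. It fell without overlap (log2 fold change -0.58 ± 0.12, adjusted p = 0.00365 by edgeR), as did Uqcrh, the hinge protein that binds cytochrome c1 (-0.51 ± 0.13, adjusted p = 0.0130 by edgeR, and 0.115 with the offset for counted length). In complex V, Atp5b stood at 73006, 74170 and 66096 in ETO and at 50701, 44008 and 50560.1 in ETO+SR-3420. The groups did not overlap (log2 fold change -0.55 ± 0.12, adjusted p = 0.00552 by edgeR). Atp5j2 and Atp5k gave -0.55 ± 0.14 (adjusted p = 0.0123 by edgeR) and -0.54 ± 0.18 (adjusted p = 0.0388 by edgeR). The call of Atp5j2 was lost without ETO 1 (0.0524 by edgeR), and that of Atp5k without TC 3, TC+SR-3420 1, ETO 1, ETO 2, ETO+SR-3420 2 or ETO+SR-3420 3 (up to 0.122 by edgeR). In complex IV, Cox6b1 and Cox7a2 gave -0.48 ± 0.12 (adjusted p = 0.00787 by edgeR) and -0.37 ± 0.10 (adjusted p = 0.0176 by edgeR). The call of Cox7a2 was lost without ETO 2, ETO+SR-3420 1 or ETO+SR-3420 2 (up to 0.0737 by edgeR) and with the offset for counted length (0.168). The abundant Cox4i1 and Cox6a1 did not pass the test, with log2 fold changes of -0.58 ± 0.39 (adjusted p = 0.309 by edgeR) and -0.44 ± 0.38 (adjusted p = 0.437 by edgeR). Their samples overlapped, with Cox4i1 at 29744, 21198 and 13643 in ETO and 21071, 11346 and 10835 in ETO+SR-3420.

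SR-3420 against vehicle gives the response without an inhibitor, with 2 samples in each group. Here 2 members fell, Cox8b and Ndufa10, and 0 rose by edgeR, where 2.79% of all genes tested were lowered and 4.75% raised. At an unadjusted p under 0.05 there were 19 lowered and 1 raised, and DESeq2 called 11 lowered and 0 raised, where 1240 and 688 of the 12786 genes tested were lowered. The median log2 fold change was -0.27 for the members and -0.00 for all genes. Cox8b had normalized counts of 1902 and 1379 in vehicle and of 821 and 831 in SR-3420. Both SR-3420 samples were lower, and the groups did not overlap (log2 fold change -0.98 ± 0.21, adjusted p = 0.0140 by edgeR), with no call without vehicle 2, SR-3420 1 or SR-3420 3 (up to 0.133 by edgeR). Ndufa10, an accessory subunit of complex I, stood at 3109 and 3074 in vehicle and at 2083 and 2322 in SR-3420. The groups did not overlap (log2 fold change -0.47 ± 0.13, adjusted p = 0.0401 by edgeR), but the call was lost in 12 of the 16 fits that left out 1 sample (up to 0.264 by edgeR) and with the offset for counted length (0.0692). The number lowered came to 0 without vehicle 2 or SR-3420 1 and to 1 in 10 further fits without 1 sample. With the offset for counted length and GC content, chosen after seeing the data, it was 15. Sdha, with 18442 and 15522 in vehicle and 12573 and 11639.5 in SR-3420, did not pass the test (log2 fold change -0.47 ± 0.15, adjusted p = 0.0822 by edgeR).

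The next comparisons share the vehicle or the SR-3420 samples with those above and are not independent of them. TC against vehicle gives the effect of triacsin C without SR-3420. The study reports that triacsin C by itself also strongly raised the fatty acids that unstimulated cells released. Here 3 members rose and 0 fell by edgeR, where 4.77% of all genes tested were raised and 6.94% lowered. At an unadjusted p under 0.05, 16 were raised and 0 lowered, and DESeq2 called 7 raised and 0 lowered, where 1551 and 828 of the 12786 genes tested were raised. The median log2 fold change was 0.32 for the members and 0.07 for all genes, and 79 of 80 members lay above 0. Cox7a2 had normalized counts of 1928 and 1779 in vehicle and 2338, 2368 and 2635 in TC, Cox7b had 3138 and 2583 and 3561, 4076 and 3952, and Atp5e had 3171 and 2385 and 3558, 4268 and 3899.8. In each of these genes the TC samples were above both vehicle samples. Their log2 fold changes were 0.42 ± 0.12 (adjusted p = 0.0293 by edgeR), 0.46 ± 0.12 (adjusted p = 0.0229 by edgeR) and 0.51 ± 0.15 (adjusted p = 0.035 by edgeR). The calls were lost in 6, 4 and 6 of the 16 fits that left out 1 sample (up to 0.25, 0.290 and 0.385 by edgeR). With the offset for counted length, 0 members were raised by edgeR and the median was -0.03. With the replicate number as a block, an alternative fit, 20 were raised, and 0 by edgeR with that block and the offset. The numbers of all genes raised in these fits are not given here. Without vehicle 3, TC 2, TC 3 or TC+SR-3420 2 the number raised was 0, and without ETO 3 it was 5. ETO against vehicle gave 0 members raised or lowered by edgeR, where 0.0235% of all genes tested were called in either direction, 0 at an unadjusted p under 0.05 and 0 by DESeq2, with a median of -0.13.

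The SR-3420 groups with and without an inhibitor were compared as well. In TC+SR-3420 against SR-3420, 3 members fell and 0 rose by edgeR, where 3.55% of all genes tested were lowered, with 18 lowered and 0 raised at an unadjusted p under 0.05 and 8 lowered and 0 raised by DESeq2. Of the 12786 genes tested, 1528 were lowered at the unadjusted p and 755 by DESeq2. The 3 members called by edgeR were Sdha, at 12573 and 11639.5 in SR-3420 and 7345, 7883 and 7097 in TC+SR-3420, Ndufv3, at 2185 and 2413 and 1494, 1598 and 1449, and Uqcrfs1, at 5263 and 4599.7 and 3484, 3405 and 3585. None of the 3 overlapped between these groups, which was a condition for naming them. Of the 12786 genes tested, 2220 were lower and 2332 higher without overlap. Their log2 fold changes were -0.72 ± 0.14 (adjusted p = 0.0114 by edgeR), -0.62 ± 0.13 (adjusted p = 0.0179 by edgeR) and -0.51 ± 0.13 (adjusted p = 0.0468 by edgeR). The calls were lost in 2, 4 and 13 of the 16 fits that left out 1 sample (up to 0.142, 0.0992 and 0.425 by edgeR). The number lowered was 0 without SR-3420 1 or TC+SR-3420 3 and 1 without TC+SR-3420 1. It was 7 with the offset for counted length and 19 with that for counted length and GC content. ETO+SR-3420 against SR-3420 gave 0 members lowered or raised by edgeR, where 0.00782% of all genes tested were called in either direction, with 22 lowered and 0 raised at an unadjusted p under 0.05 and 1 lowered by DESeq2, and a median of -0.32. Of all genes tested, 894 were lowered at the unadjusted p and 81 by DESeq2. Among the 13 members with at most 1 count per counted base in the fullest sample the median was -0.04. It was 0.03 in TC+SR-3420 against SR-3420, where that of all members was -0.29. The replicate number as a block is an alternative, since the labels do not say what it marks. With it 33 members were lowered in ETO+SR-3420 against SR-3420 and 31 in TC+SR-3420 against SR-3420, and the numbers of all genes lowered with it are not given here.

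Whether the response to SR-3420 differed with and without an inhibitor was tested as an interaction. The response after TC minus the response without an inhibitor was lower by edgeR in 2 members, where 1.27% of all genes tested were called lower, and higher in 0. At an unadjusted p under 0.05 it was lower in 39 members and higher in 0, and by DESeq2 lower in 14 and higher in 0, where 1234 and 376 of the 12786 genes tested were lower. The median was -0.65 for the members and -0.04 for all genes. Among the 13 members with at most 1 count per counted base in the fullest sample it was -0.26. Under 500 bases it was -0.74 for the members and -0.44 for all genes, and from 500 to under 750 bases -0.66 and -0.38. The members called were Ndufv3, with a difference of -0.96 ± 0.19 on the log2 scale (adjusted p = 0.0177 by edgeR), and Sdha, with -0.86 ± 0.20 (adjusted p = 0.0396 by edgeR). With the offset for counted length neither passed (0.0786 and 0.0649), and the calls were lost in 6 and 11 of the 16 fits that left out 1 sample (up to 0.117 and 0.224 by edgeR). For Cox8b the difference was -1.01 ± 0.27 (adjusted p = 0.0708 by edgeR), which did not pass the test. The response after ETO minus that without an inhibitor was called in 0 members by edgeR and by DESeq2, where 0% of all genes tested were called by edgeR and DESeq2 called 3 higher and 4 lower, with 1 member lower and 0 higher at an unadjusted p under 0.05 and a median of -0.22. Among the 13 members with at most 1 count per counted base in the fullest sample this median was 0.15. With the replicate number as a block the difference after TC was lower in 41 members. With that block and the offset for counted length it was lower in 4. The numbers of all genes called in these fits are not given here, so these counts cannot be read as particular to the members. Whether the responses after TC and after ETO differ from each other was not tested.

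Among paired isoforms of complex IV, the share per length of Cox8b was lower with SR-3420 in each pair of groups, and those of Cox4i2, Cox7a1 and Cox6a2 each overlapped in 1 of the 3 pairs. Cox8b made up 17.6 and 18.6% of the length-corrected counts of Cox8a and Cox8b in vehicle and 9.56 and 12.9% in SR-3420. It made up 17.5, 16.8 and 19.1% in TC and 8.39, 11.1 and 11.8% in TC+SR-3420, and 14.3, 19.0 and 18.4% in ETO and 8.33, 12.7 and 13.1% in ETO+SR-3420. In each pair of groups the samples with SR-3420 had the lower share and did not overlap with those without it. Cox4i2 made up 0.146 and 0.224% of Cox4i1 and Cox4i2 in vehicle and 0.157 and 0.349% in SR-3420, which overlapped. It made up 0.146% ± 0.0567 (SD, n = 3) in TC, 0.559% ± 0.167 in TC+SR-3420, 0.173% ± 0.0409 in ETO and 0.535% ± 0.264 in ETO+SR-3420. The muscle isoform Cox7a1 made up 8.50% ± 1.5 (SD, n = 2) of Cox7a1 and Cox7a2 in vehicle and 14.3% ± 1.22 in SR-3420, and 7.20% ± 0.549 in ETO and 10.2% ± 1.09 in ETO+SR-3420. In TC it made up 8.83, 12.7 and 8.48% and in TC+SR-3420 8.32, 11.8 and 12.8%, which overlapped. Cox6a2, the muscle isoform of subunit 6a, made up 0.196% ± 0.0311 of Cox6a1 and Cox6a2 in vehicle and 0.372% ± 0.0473 in SR-3420, and 0.259% ± 0.0357 in TC and 0.453% ± 0.0573 in TC+SR-3420. In ETO it made up 0.263, 0.412 and 0.377% and in ETO+SR-3420 0.332, 0.321 and 0.448%, which overlapped. These shares were described and not tested. They can be too high if reads of the common isoform ran out of positions, which was not tested. Cox4i1 and Cox6a1 held up to 63.9 and 63.2 counts per counted base. Cox8a held up to 35.5 (in TC 2) against up to 7.17 for Cox8b.

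**Figure D4:**
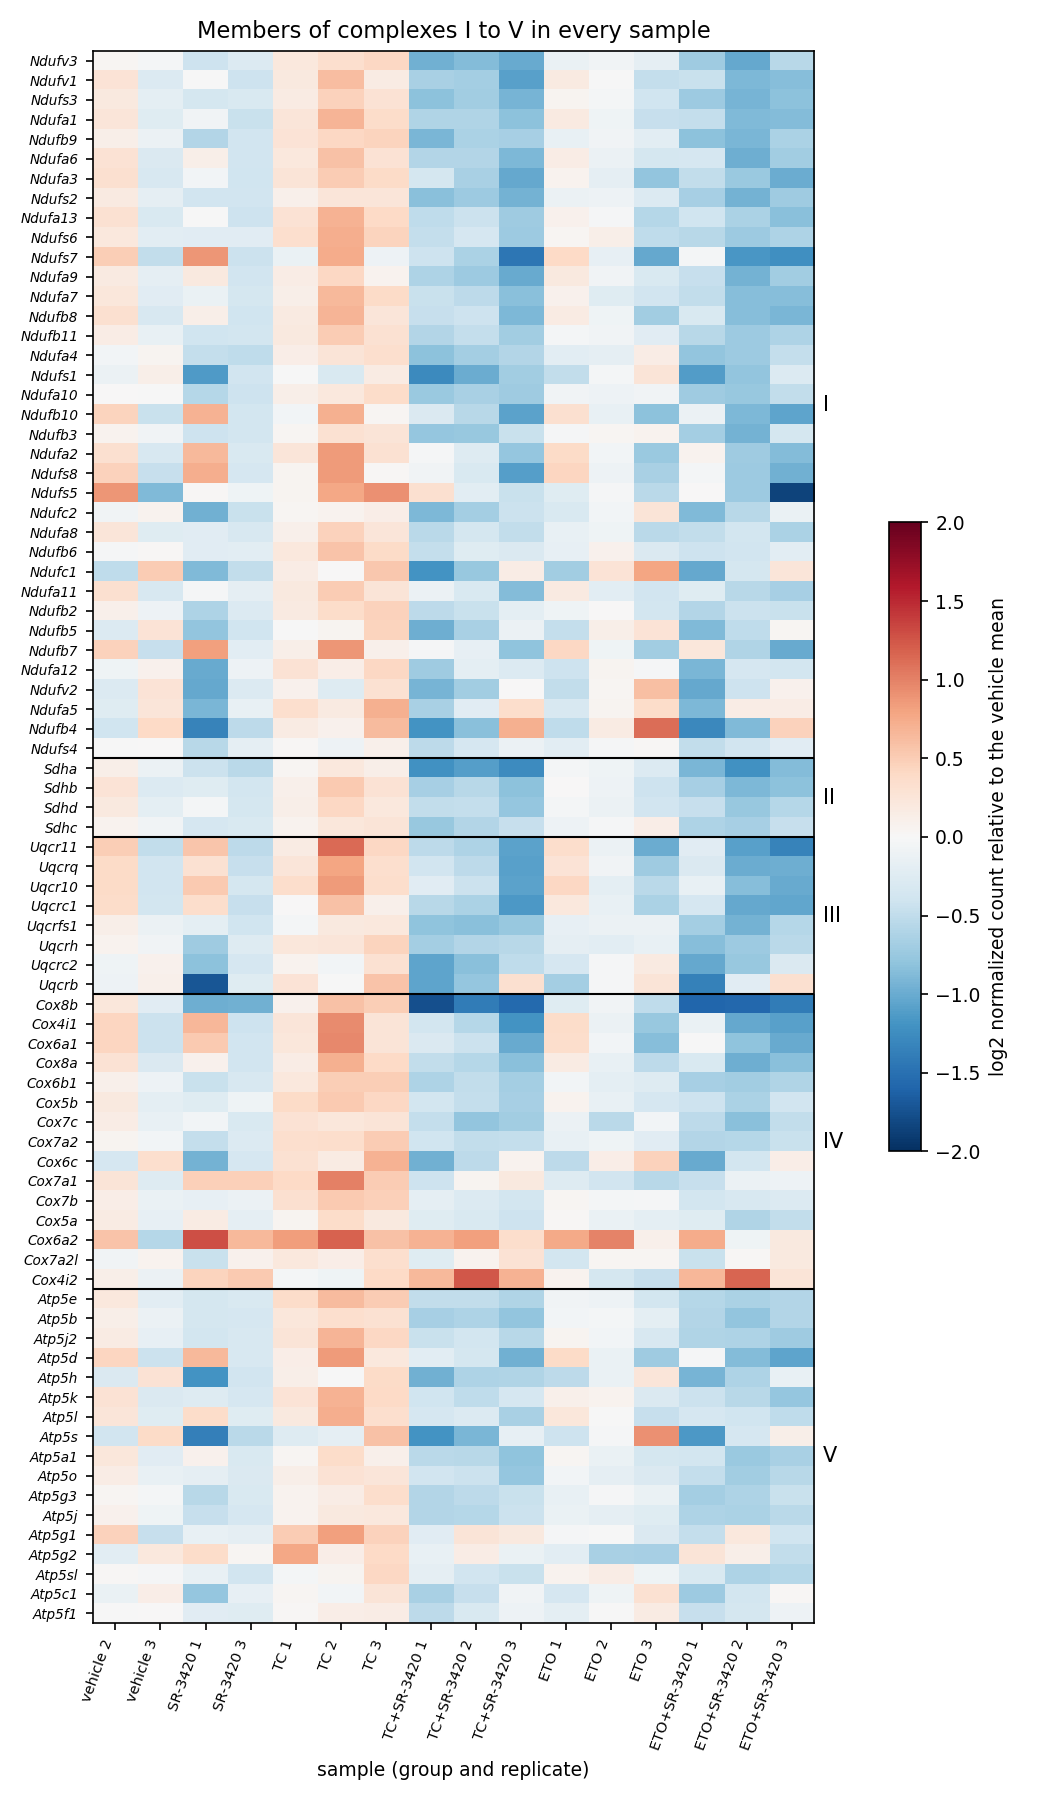
Log2 normalized count (with 1 added) of the 80 tested members (top to bottom, by complex) in the 16 samples (left to right), relative to the mean of the vehicle samples and coloured from -2 to 2, with values beyond these in the end colours. The TC+SR-3420 and ETO+SR-3420 columns are blue for most members, and members such as Ndufs7 and Uqcrb differ between samples of 1 group in opposite ways.

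The members also varied within groups, and not all in the same way. The pooled SD of log2 normalized counts within groups ran, over the 80 members tested, from 0.0761 for Atp5j and 0.0834 for Cox7a2 to 0.765 for Ndufb4, an accessory subunit of complex I with a mean normalized count of 46.2. Below Ndufb4 came Ndufs7, a core iron-sulfur subunit of complex I, at 0.658 and Uqcrb at 0.650. Ndufs7 had normalized counts of 6033 and 2433 in SR-3420 and of 3182, 1453 and 1405 in ETO+SR-3420. Uqcrb had 82.7 and 233 in SR-3420 and 107, 235 and 343 in ETO+SR-3420. Sample 1 of these groups was thus the highest for Ndufs7 and the lowest for Uqcrb. These members were picked after their values were seen. Correlations were taken across the 80 members, which are not independent replicates and share their libraries. The log2 fold change of SR-3420 against vehicle correlated with GC content of the transcript at r = 0.505. That of TC+SR-3420 against TC correlated with the mean level per kilobase at r = -0.573 and with log2 counted length at r = 0.0614. That of TC against vehicle correlated with log2 counted length at r = -0.503 and with GC content at r = 0.4645.

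Counted length went with the fold change in all genes, so the members are set beside genes of like length. In TC+SR-3420 against TC, the median log2 fold change of all genes was -0.42 under 500 bases, -0.50 from 500 to under 750, -0.32 from 750 to under 1200, -0.21 from 1200 to under 2000 and 0.15 from 2000 bases on. The members' medians in these classes were -0.95, -0.86, -0.82, -0.94 and -0.89, with 16, 30, 15, 15 and 4 members. Of the members, 81.2%, 70%, 53.3%, 80% and 100% were lowered, and of all genes 24.8%, 37.6%, 31.3%, 27.7% and 15.3%. The members' median thus lay below that of all genes in each class. In ETO+SR-3420 against ETO the medians were -0.55, -0.42, -0.47, -0.58 and -0.53 for the members and -0.10, -0.21, -0.15, -0.07 and 0.06 for all genes. In TC against vehicle they were 0.43, 0.38, 0.31, 0.20 and 0.16 for the members and 0.38, 0.35, 0.24, 0.20 and -0.01 for all genes. Among the 13 members with at most 1 count per counted base in the fullest sample, few positions are taken. Their median was -0.56 in TC+SR-3420 against TC and -0.29 in ETO+SR-3420 against ETO. It was 0.03 in TC+SR-3420 against SR-3420 and -0.04 in ETO+SR-3420 against SR-3420, against -0.29 and -0.32 for all members. For the difference of responses it was -0.26 after TC and 0.15 after ETO, against -0.65 and -0.22. In SR-3420 against vehicle and TC against vehicle it was -0.25 and 0.32, against -0.27 and 0.32. How far removing reads with a shared position lowers the fold changes of the fuller members was not tested.

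**Figure D5:**
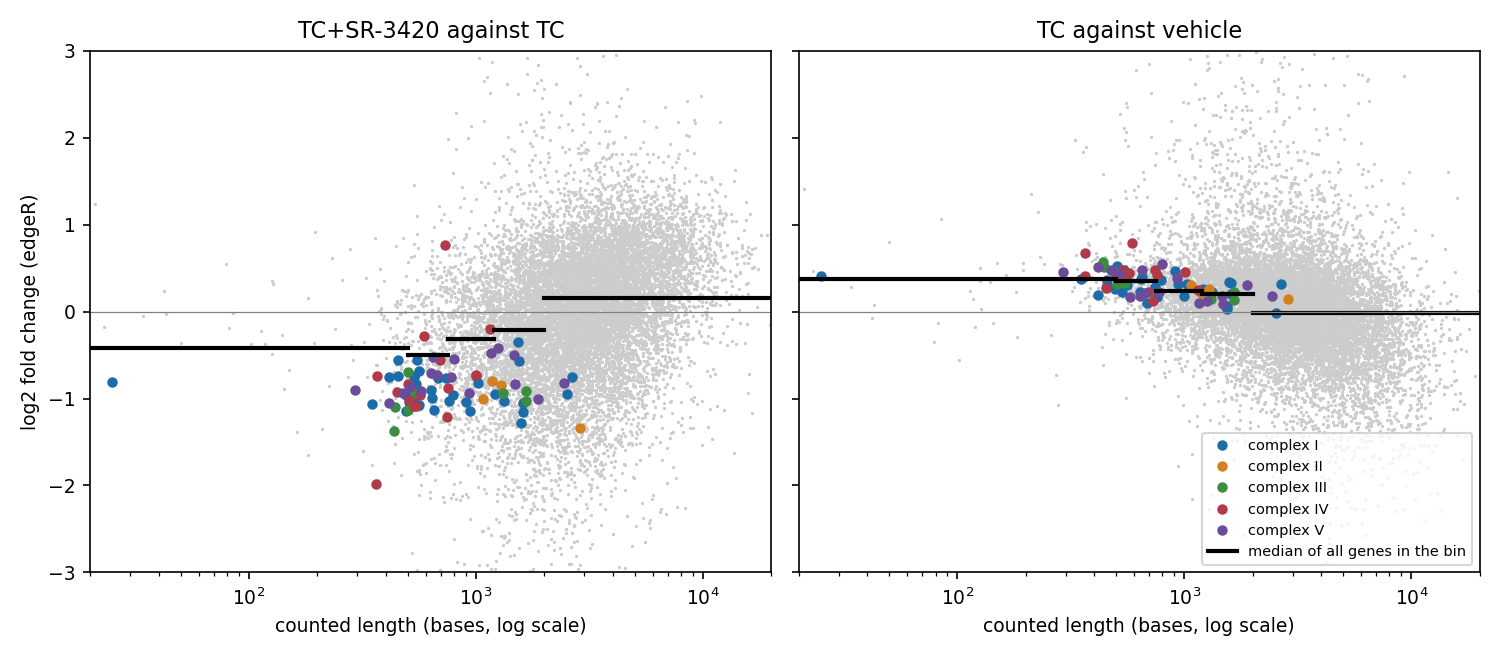
Log2 fold change by edgeR (vertical axis) over counted length in bases (horizontal log axis) for the tested members, coloured by complex, and all genes tested in grey, with black bars for the median of all genes in 5 classes of length, in TC+SR-3420 against TC and in TC against vehicle. Genes outside the axes are not drawn, and most members lie under the black bars in the first comparison, with Cox4i2, Cox6a2 and Cox7a2l above the bar of their class.

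The promoters of the members were searched for letters of factors known to bind respiratory chain genes. A promoter of the same 300 bases was found for 66 of the 84 members (71 promoters) and compared with the 32851 promoters of the RefSeq table. The NRF1 letters GCGCATGC were in 10 of the 71 promoters (14.1%) and in 2.71% of all. The ETS letters CCGGAAG were in 16 (22.5%) and in 8.86% of all, and the YY1 letters ATGGCGG in 11 (15.5%) and in 4.05%. The letters TCAAGGTCA, bound by estrogen-related receptors, were in 2 (2.82%) and in 0.423%, and TATAAA in 8 (11.3%) and in 13.6%. Of the 11 promoters with YY1 letters, 9 belonged to complex I, which holds 34 of the 71, and 2 to complex V. The 9 count Ndufa7 with 2 overlapping promoters that share the match, and by gene they are 8 of 32. These letters begin with ATG, and in Ndufb5, Ndufa9, Ndufs4 and Ndufs6 they lay 19, 32, 38 and 36 bases after the annotated start. In Ndufa1 and Ndufa7 the match lay before the start. Whether matches after the start are start codons of the protein was not tested. ETS matches were in 11.8% of the promoters of complex I and 31.2% of those of complex V. They were in 2 of 3 promoters of complex II, 2 of 5 of complex III and 3 of 13 of complex IV. Whether the complexes differ was not tested. Both strands were searched, the shares were not tested, and a match describes the sequence without showing that a factor binds it. The promoters of Sdhb and Uqcr11 are printed as examples with an NRF1 and an ETS match, in capitals (GRCm38.p6 chr4:140961021-140961320, plus strand, and GRCm38.p6 chr10:80406772-80407071, minus strand).
Sdhb: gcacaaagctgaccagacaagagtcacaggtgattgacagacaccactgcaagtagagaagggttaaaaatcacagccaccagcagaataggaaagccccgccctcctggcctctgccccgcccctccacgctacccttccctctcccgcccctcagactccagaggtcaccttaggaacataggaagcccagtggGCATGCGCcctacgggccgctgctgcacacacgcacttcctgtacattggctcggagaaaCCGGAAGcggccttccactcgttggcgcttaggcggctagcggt
Uqcr11: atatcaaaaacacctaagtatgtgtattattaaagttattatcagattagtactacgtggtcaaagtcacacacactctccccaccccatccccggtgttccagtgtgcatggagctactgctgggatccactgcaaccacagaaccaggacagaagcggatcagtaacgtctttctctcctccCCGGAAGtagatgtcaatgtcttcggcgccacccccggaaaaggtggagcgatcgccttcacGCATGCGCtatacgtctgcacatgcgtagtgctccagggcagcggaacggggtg

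Other genes of the same pathways are given by lists. In TC+SR-3420 against TC 19.7% of all genes tested were lowered, and in ETO+SR-3420 against ETO 12.8%. A first list held subunits and electron carriers that the rule on symbols leaves out, with associated proteins such as Atpif1, Higd1a and Higd2a. Of its 8 tested genes, 3 fell in TC+SR-3420 against TC (median log2 fold change -0.67). In ETO+SR-3420 against ETO 0 fell and 1 rose by edgeR (-0.37). Higd1a had normalized counts of 427, 381 and 444 in ETO and 633, 631 and 680 in ETO+SR-3420. Ndufab1, the acyl carrier protein held in complex I, had normalized counts of 296, 346 and 329 in TC and 186, 202 and 169 in TC+SR-3420. Its groups did not overlap (log2 fold change -0.82 ± 0.19, adjusted p = 0.00377 by edgeR). Of the 13 enzymes of the tricarboxylic acid cycle, which feeds the chain, 10 fell in TC+SR-3420 against TC (-0.91) and 7 in ETO+SR-3420 against ETO (-0.58). Suclg1, a subunit of succinyl-CoA ligase, gave -1.05 ± 0.12 (adjusted p = 2.46e-05 by edgeR) and -0.76 ± 0.12 (adjusted p = 4.64e-04 by edgeR). Of 12 genes of coenzyme Q synthesis, 7 fell after TC (-0.68) and 6 after ETO (-0.50). Of 40 assembly factors of the complexes, 19 fell and 1 rose after TC (-0.56), and 14 fell and 0 rose after ETO by edgeR (-0.38). Cox15, which makes the heme a of complex IV, gave -1.23 ± 0.11 (adjusted p = 9.22e-06 by edgeR) and -0.96 ± 0.11 (adjusted p = 7.91e-05 by edgeR).

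Of the 13 tested regulators of mitochondrial genes, 2 rose and 0 fell by edgeR in TC+SR-3420 against TC (median log2 fold change 0.05), where 17.3% of all genes tested were raised. In ETO+SR-3420 against ETO 1 rose and 0 fell by edgeR (0.05), where 12.5% of all genes tested were raised. Pprc1, a coactivator related to PGC-1, rose in both, with a log2 fold change of 0.92 ± 0.18 (adjusted p = 0.00141 by edgeR) in the first and an adjusted p of 7.10e-04 by edgeR in the second. Nrf1, whose protein binds the NRF1 letters, had normalized counts of 715, 702 and 561 in TC and 1217, 1183 and 1012 in TC+SR-3420. Its TC+SR-3420 samples were the higher, without overlap (log2 fold change 0.76 ± 0.19, adjusted p = 0.00573 by edgeR). Ppargc1a, the gene of PGC-1 alpha, a coactivator of mitochondrial genes in brown fat, stood at 702 and 729 in vehicle and at 303, 328 and 397 in TC. It was lower in TC (log2 fold change -1.04 ± 0.26, adjusted p = 0.0196 by edgeR). The members' median in TC against vehicle was 0.32, and -0.03 with the offset for counted length.

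Summed markers of cell types differed between the groups. The 12 genes of the brown adipocyte list, mostly the counts of adipocyte genes such as Fabp4 and Adipoq, summed to 224320, 248010 and 234355 in TC and to 94616, 93588 and 91627 in TC+SR-3420, and to 219814, 198285 and 213785 in ETO and 122256, 83479 and 137903 in ETO+SR-3420. Of the 11 tested, 6 fell and 1 rose after TC, and 5 fell and 0 rose after ETO by edgeR, where 19.7 and 12.8% of all genes tested were lowered. Genes typical of brown fat did not all follow the sum. In TC and TC+SR-3420, Prdm16 stood at 113, 129 and 82.2 and at 224, 195 and 128. Ucp1 had 13.2, 35.4 and 27.0 and 35.0, 48.1 and 49.9. Elovl3 had 208, 225 and 197 and 142, 121 and 113. Cidea and Ppargc1a overlapped between these groups. In ETO and ETO+SR-3420, Prdm16 stood at 473, 409 and 335 and at 390, 227 and 266. The 8 markers of fibroblasts and preadipocytes, with Col1a1 the most abundant, summed to 35827, 31499 and 27429 in TC and to 64390.2, 53710.5 and 41868 in TC+SR-3420. They summed to 31404, 22816 and 15677 in ETO and to 66752, 47384 and 32586 in ETO+SR-3420, and 2 of 8 rose after TC and 6 of 8 after ETO, where 17.3 and 12.5% of all genes tested were raised. In SR-3420 they summed to 55829.5 and 40367 and in vehicle to 26116 and 22822, where 0 of 8 rose by edgeR. In each pair of groups the samples with SR-3420 had the higher sums, without overlap, and the TC samples lay above the vehicle samples, also without overlap and with 0 of 8 raised by edgeR. The 6 macrophage genes, mostly the counts of Cd68, summed to 95.8 and 60.4 in vehicle, 227, 252 and 238 in TC and 129, 131 and 118 in TC+SR-3420. Cd68 rose in TC against vehicle (log2 fold change 1.92 ± 0.27, adjusted p = 3.66e-04 by edgeR) and fell in TC+SR-3420 against TC (-1.29 ± 0.22, adjusted p = 6.51e-04 by edgeR). Other cell types had few counts, with summed normalized counts of up to 112 for 5 endothelial genes (Vwf) and 154 for 8 skeletal muscle genes (Acta1), and the defining genes Ptprc, Pecam1 and Ckm did not pass the filter on low counts. The part of these shifts in the members' fold changes was not tested.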

How the data were processed

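RNA-seq was read from the deposited table of 20295 genes in 16 samples. Its values are whole counts that the authors deposited without normalization, after alignment to mm9 with STAR 2.4.2a, removal of all but 1 read per position and read length with HOMER, and counting with iRNA-seq. Whether the counting used the strand is not stated. All genes were fitted in 1 model over the 6 groups with edgeR 4.0.16 in R 4.3.3 (TMM, filterByExpr, quasi-likelihood test), p-values were adjusted by Benjamini-Hochberg over the 12786 genes tested, and 0.05 was the threshold. The total counts lay between 9452861 and 25670624, so counting error was small except for members with few counts. Alternatives were DESeq2 1.42.0 (Wald test, size factors), no filter on low counts, the replicate number as a block, a fit restricted to the groups compared, an offset for counted length from a spline with 5 degrees of freedom, and each sample left out. The offset for counted length and GC content together was chosen after seeing the data. The fits were also run on simulated data, whose outcome is not reported here. The members and lists were chosen with earlier results of these data known. Named are, in each comparison, for each complex and direction at most 3 members with the largest absolute log2 fold change among those called, whose groups do not overlap (not asked of interactions) and whose normalized counts average 50 or more. Lack of overlap in members named by this rule is thus no further result. Of all genes tested, 3550 were lower and 3638 higher without overlap in TC+SR-3420 against TC. These numbers were 2123 and 2020 in ETO+SR-3420 against ETO and 2838 and 2800 in SR-3420 against vehicle. Fixed isoform families, the members of extreme length or with the most counts per base, and untested members are named too. Others, such as Uqcrfs1 and Uqcrb in TC+SR-3420 against TC, were picked after their values were seen. Promoters are from RefSeq GRCm38.p6, windows of 50 bases were searched on mm9 with blastn 2.17.0, and matplotlib 3.10.9 under Python 3.11.15 drew the figures. The mitochondrially encoded subunits are not in the table and were not analysed here.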

Additional observations from a re-analysis of the deposited data

Results flagged for a closer look

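The response to SR-3420 after TC was lower than the response without an inhibitor in Ndufv3 and Sdha, by the test of the difference (adjusted p = 0.0177 and 0.0396 by edgeR). The difference of the log2 fold changes was -0.96 for Ndufv3 and -0.86 for Sdha, with both responses below 0 and the one after TC the lower. Neither call held under every alternative. Neither passed with the counted length offset (adjusted p = 0.0786 and 0.0649 by edgeR) or with no filter on low counts. The call of Ndufv3 was lost in 6 of the 16 fits that left out 1 sample (either vehicle or SR-3420 sample, TC 3 or TC+SR-3420 2, up to 0.117), and that of Sdha in 11 (any vehicle, SR-3420, TC or TC+SR-3420 sample or ETO 2, up to 0.224).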

How the results depend on the processing

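For settings other than DESeq2 the numbers of all genes called are not given here, so the counts of members cannot be set beside them. The alternatives that changed a number of members by over 1.5 times, or a median by over its spread between replicates, were these. SR-3420 against vehicle (2 lowered) gave 11 with DESeq2's Wald test, 1 with no filter on low counts, 0 with only the compared groups (by edgeR), 12 with the replicate block, 1 with the counted length offset, 10 with that offset and the block, 15 with the offset for counted length and GC content and 22 with this and the block. TC+SR-3420 against TC (58 lowered) gave 36 with the counted length offset. ETO+SR-3420 against ETO (30 lowered) gave 5 with only the compared groups, 58 with the block, and 53 with the length and GC offset and the block. TC against vehicle (3 raised) gave 7 with DESeq2, 0 with no filter, 0 with only the compared groups, 20 with the block, and 0 with each of the 4 settings that use an offset (by edgeR). TC+SR-3420 against SR-3420 (3 lowered) gave 8 with DESeq2, 0 with only the compared groups, 31 with the block, 7 with the length offset, 33 with it and the block, 19 with the length and GC offset and 43 with this and the block. ETO+SR-3420 against SR-3420 (0 lowered) gave 1 with DESeq2, 33 with the block, 23 with the length offset and the block, and 30 with the length and GC offset and the block. The difference of responses after TC (2 lower) gave 14 with DESeq2, 0 with no filter, 1 with only the compared groups, 41 with the block, 0 with the length offset, 4 with it and the block, and 18 with the length and GC offset and the block. The median log2 fold change of the members moved from -0.90 to -0.44 with the length offset, -0.51 with the length and GC offset and -0.56 in members with at most 1 count per counted base (TC+SR-3420 against TC), from -0.49 to -0.34, -0.34 and -0.29 (ETO+SR-3420 against ETO), and from 0.32 to -0.0313 with the length offset and -0.0250 with the length and GC offset (TC against vehicle), which turned its sign. In members with at most 1 count per counted base, the median also moved from -0.29 to 0.03 (TC+SR-3420 against SR-3420) and from -0.32 to -0.04 (ETO+SR-3420 against SR-3420). There it moved from -0.65 to -0.26 for the difference after TC and from -0.22 to 0.15 for the difference after ETO. The causes of these moves were not tested. With each sample left out, the numbers ran from 0 to 2 (SR-3420 against vehicle), 47 to 60 (TC+SR-3420 against TC), 18 to 36 (ETO+SR-3420 against ETO), 0 to 5 (TC against vehicle), 0 to 0 (ETO against vehicle), 0 to 3 (TC+SR-3420 against SR-3420), 0 to 0 (ETO+SR-3420 against SR-3420), 0 to 3 (difference after TC) and 0 to 0 (difference after ETO). They left their range of 1.5 times in SR-3420 against vehicle without vehicle 2 or SR-3420 1 (0), or vehicle 3, SR-3420 3, ETO 1, ETO 2, or any TC or TC+SR-3420 sample (1). In ETO+SR-3420 against ETO they did so without ETO 1 (19), ETO 2 (19) or ETO+SR-3420 2 (18), and in TC against vehicle without vehicle 3, TC 2, TC 3 or TC+SR-3420 2 (0) or ETO 3 (5). In TC+SR-3420 against SR-3420 they did so without SR-3420 1 or TC+SR-3420 3 (0) or TC+SR-3420 1 (1), and in the difference after TC without either vehicle or SR-3420 sample, TC 3 or TC+SR-3420 2 (0) or TC 1, TC 2, TC+SR-3420 1, TC+SR-3420 3 or ETO 2 (1). Leaving out a vehicle or SR-3420 sample leaves 1 in its group, which is assumed to vary like the other groups. Of the 51 calls of named members, 24 were lost without at least 1 sample. The replicate numbers were checked for pairing by the correlation of deviations from group means, which averaged 0.410 over 35 pairs with the same number (-0.287 to 0.827) and -0.203 over 71 others. For 10 of 16 samples the closest sample had its own number, and 8 of the 35 correlations with the same number were at most 0.1. Samples with the same number were thus more alike on average. They fell short of the rule set for pairing, so the block is an alternative. Whether samples with the same number share an effect was not tested.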
